A study of Mus musculus with 6 samples.

Results

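The TRIM (tripartite motif) family is a set of ubiquitin ligases that carry, in order, a RING finger, 1 or more B-box zinc fingers and a coiled coil. The domains at the C-terminus vary across subfamilies. Its members were taken as the protein-coding genes whose symbol begins with Trim followed by a digit. The rule gave 42 of the 15388 genes in the table. The mouse GENCODE M21 annotation lists 68 protein-coding genes with such symbols, and the others were not analysed here.

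RNA was measured in the hippocampus of 3 tamoxifen-induced Cx3cr1-Cre/Ert2+; NuTRAP+ mice, numbered 201, 207 and 208. All were heterozygous for an inducible Cre recombinase driven by the Cx3cr1 promoter and for the NuTRAP reporter, which in recombined cells puts GFP on ribosomes. Tamoxifen was given daily for 5 days at about 3 months of age. The study as a whole used males and females, and the sex of each of these 3 mice was not used here. Translating ribosome affinity purification (TRAP) gave 2 fractions from each animal, the cleared homogenate (Input) and the RNA held by an antibody to GFP on beads (Positive). Input and Positive thus shared genotype, tamoxifen and age, and no group without Cre or without tamoxifen was part of this comparison. The Cx3cr1 promoter is active in microglia and in other macrophages, so tagged ribosomes are not limited to microglia. The question was which TRIM transcripts were more, or less, abundant on tagged ribosomes than in whole hippocampus.

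A TRIM ligase moves ubiquitin from an E2 enzyme onto a substrate chosen by its C-terminal domain. Members with a PRY-SPRY domain include sensors and effectors of antiviral defence, several of which are induced by interferon, while members with a COS box bind microtubules, those with NHL repeats act largely on RNA and on synaptic or cytoskeletal proteins, and those with a PHD finger and bromodomain act on chromatin. In brain, microglia are the main resident cells with innate immune sensing, whereas Trim2, Trim3, Trim9, Trim46 and Trim67 are known from neurons.

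The libraries held 14879734 to 17757918 reads each. Values below are scaled reads, that is, reads divided by the size factor of the library, and errors are the SD over 3 animals unless named as the standard error (SE) of the fit. All 10 microglia markers were higher in Positive, with log2 fold changes of 3.12 to 4.82, and the Cx3cr1 transcript itself rose from 304 to 8320 scaled reads. The 8 border macrophage markers and the 10 endothelial markers were higher as well, with median log2 fold changes of 4.08 and 1.88, and summed endothelial reads were 1720 to 2090 in Input and 4550 to 9180 in Positive. The border macrophage markers Pf4, Folr2, Ms4a7 and Lyve1 averaged 10.7 to 18.4 scaled reads in Input. A gene was tested only above 20 scaled reads throughout 1 fraction, so these markers could only be seen if high in Positive. All 10 oligodendrocyte markers were lower (median -2.58). Of 10 astrocyte markers 4 were lower and 1 higher, a count of 5 that became 3 without any one of the 3 Input libraries and 9 without the Positive of animal 201. Of 10 neuron markers 4 were higher by 0.55 or less and 0 lower, with 2 called without the Input of animal 208. No marker list had a gene at 0 in all Positive libraries, and of 8 monocyte and neutrophil markers only Ly6c2 was in the table. Ly6c2 was higher in Positive, from a mean of 7.29 to 22.6 scaled reads (log2 1.61 ± 0.44 SE), and could only be seen if high there. The part of these cell types in the TRIM values was not tested, and in such bulk fractions the share of ribosomes from a cell type and its RNA per cell cannot be told apart.

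Promoter sequence is shown first, for 7 members whose values are given below. The first 6 sit together on chromosome 7, and Trim26 is added as a gene from another chromosome with the same motif. The core of the interferon-stimulated response element, GAAANNGAA, was searched on both strands in the 300 bases from 250 before to 50 after each RefSeq start site (GRCm38.p6). It occurred in at least 1 promoter of 11 of the 32 members matched by symbol, and in 9.76% of all 27025 genes (8.56% of 32851 promoters). Each line reads along the gene's own strand, and the capitals mark 1 occurrence of the motif, which in these genes lay on the opposite strand:
Trim30a, chr7:104465200-104465248, minus strand: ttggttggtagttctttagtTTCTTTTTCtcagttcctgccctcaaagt
Trim30d, chr7:104507861-104507909, minus strand: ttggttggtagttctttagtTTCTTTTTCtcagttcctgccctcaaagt
Trim5, chr7:104288126-104288174, minus strand: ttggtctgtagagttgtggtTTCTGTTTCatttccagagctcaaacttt
Trim12c, chr7:104353350-104353397, minus strand: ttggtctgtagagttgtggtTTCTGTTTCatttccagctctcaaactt
Trim12a, chr7:104315476-104315504, minus strand: ttggtctgtagagttgtggtTTCTGTTTC
Trim34a, chr7:104244448-104244476, plus strand: tgtatccgctggtttggagtTTCAGTTTC
Trim26, chr17:36836967-36837015, plus strand: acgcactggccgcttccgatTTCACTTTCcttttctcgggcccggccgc
The windows of Trim30a and Trim30d were identical over 49 bases, and those of Trim5, Trim12a and Trim12c shared their first 29, so these promoters are related copies and not independent matches. The motif began 35 bases before the start site in Trim30a, 40 in Trim30d, 48 in Trim5, 28 in Trim12c and 159 in Trim26, and at position 12 of the transcript in Trim12a and in Trim34a, counting the start site as 1. Trim26 had a second occurrence that overlapped the first and began 153 bases before its start site, and Trim30a had a further start site with the motif at position 4.

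The other members with the motif were Trim2, Trim7, Trim21 and Trim25. Of the 11 members with it, 9 were higher in Positive and 0 lower, with a median log2 fold change of 1.48, and of the 21 matched members without it 5 were higher and 5 lower, with a median of -0.11. Over all genes tested 23.9% were higher and 22.0% lower (median -0.01), and over the 962 genes tested that hold the motif 30.6% were higher and 20.1% lower (median 0.03). Of the 9 members, 6 lie in the chromosome 7 cluster with its related copies, and Trim5 and Trim30d were in the table through their Positive level alone. The exceptions among the carriers were Trim2 and Trim7, at -0.21 and -0.59, neither of which passed the test. A second motif, the PU.1 core GAGGAAG, which binds a transcription factor of macrophages and microglia, was found in 9 of the 32 matched members and in 15.36% of all genes (13.63% of promoters). It occurred in Trim12a, Trim12c, Trim2, Trim24, Trim25, Trim39, Trim46, Trim5 and Trim56, of which 5 were higher and 2 lower in Positive, with a median of 1.29. Of those 5, Trim5, Trim12a and Trim12c are the related copies above, and Trim5 was in the table through its Positive level alone. All but Trim56 of the 5 also hold the interferon motif. Among the 23 matched members without the PU.1 core 9 were higher and 3 lower (median 0.08). Among all 1759 genes tested that hold the PU.1 core 31.4% were higher and 18.4% lower (median 0.04). One of these sites, shown because its gene has no interferon motif in this window, lay 80 bases before the start site:
Trim56, chr5:137116261-137116307, minus strand: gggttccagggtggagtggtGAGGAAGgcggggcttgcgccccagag
No occurrence of one motif overlapped one of the other in a member. These matches describe letters in a window and were not tested against the expression values.

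Across the family, 3 kinds of member rose by at least 2-fold. These were Trim56, the 6 genes in the table from a cluster on chromosome 7, called the SPRY cluster here, and 7 PRY-SPRY members outside it. In the edgeR quasi-likelihood test with Benjamini-Hochberg adjustment over all 15343 genes tested, 23 of 42 members differed between Positive and Input, against 46.0% of all genes. Of these, 18 were higher (23.9% of all genes) and 5 lower (22.0% of all genes), and 19 did not pass the test. At least 2-fold differences were found for 14 members that were higher (8.29% of all genes) and for 1 that was lower, Trim59 (4.47% of all genes). Trim14, Trim30d, Trim30a and Trim5 exceeded 5-fold (3.75% of all genes). The median log2 fold change was 0.14 over the members and -0.01 over all genes tested. Libraries of the 2 fractions did not overlap in 29 members (56.5% of all genes), and 32 had a ratio of the same sign in all 3 animals (70.5% of all genes).

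The table held only genes above a read limit in at least 1 fraction. Trim14, Trim5, Trim30d and Trim16 exceeded 20 scaled reads in every Positive library but not in every Input library, so they could only be seen if high in Positive, and 0 members passed through Input alone. Among the 38 members above the limit in both fractions, 14 were higher (23.1% of such genes), 5 lower (21.1%) and 19 not called. Scaling by total count gave 17 members higher and 7 lower, and put 41.6% of all called genes on the higher side where the main scaling put 52.1%.

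**Figure D1:**
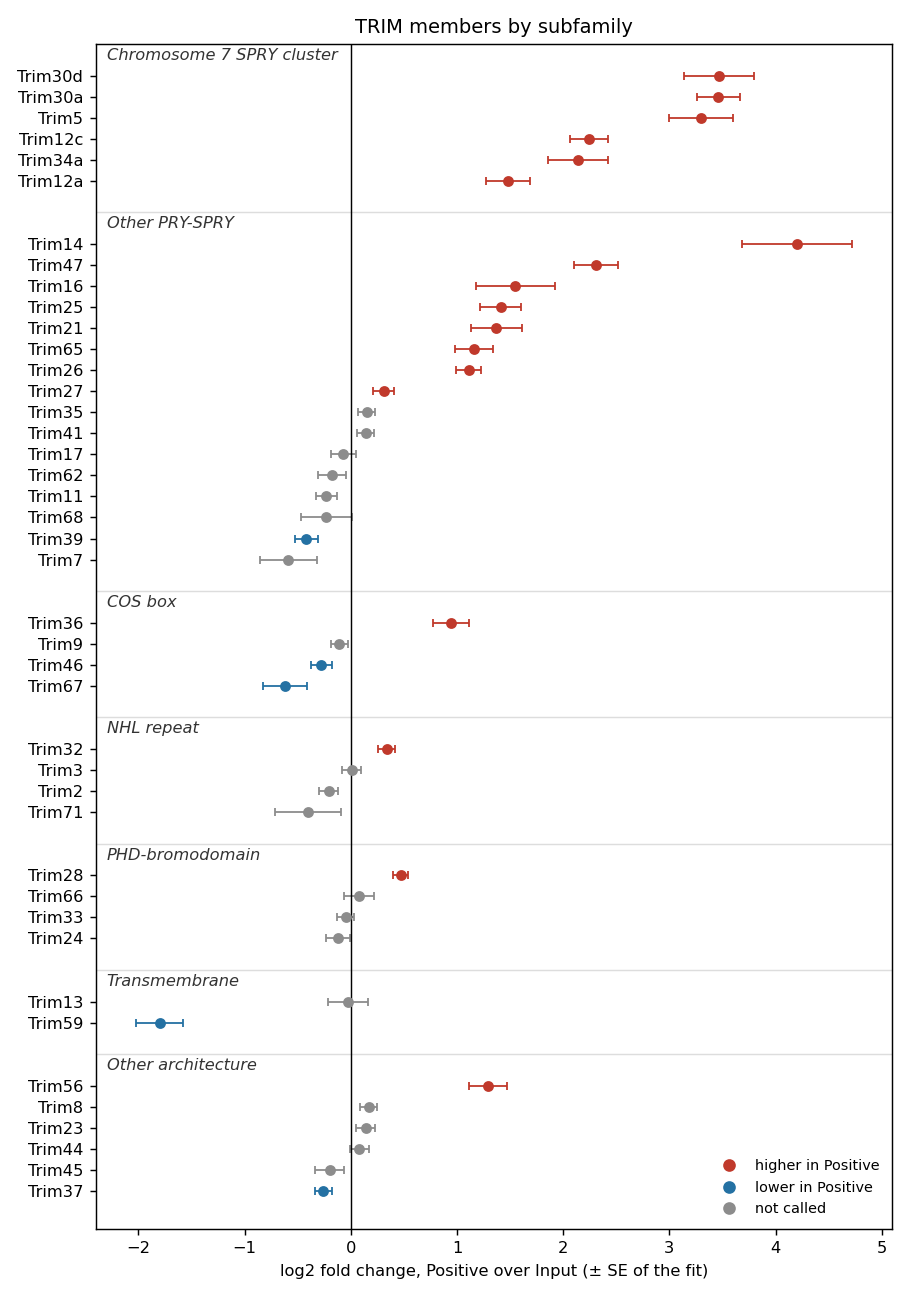
Log2 fold change of Positive over Input for each of the 42 members (horizontal axis), with the standard error of the fit as bars, grouped by subfamily; red points were called higher, blue lower and grey not called. All 6 members of the chromosome 7 SPRY cluster in the table lie at 1.48 or above. The COS box, NHL repeat and PHD-bromodomain members lie between -0.62 and 0.94. Trim14, Trim5, Trim30d and Trim16 were in the table through their Positive level alone.

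The chromosome 7 SPRY cluster holds mouse genes related to the primate retroviral restriction factor TRIM5-alpha, and its 6 members in the table all rose. Trim5 and Trim30d were in the table through their Positive level alone. The related genes Trim30b and Trim34b were not in the table, so the cluster was seen only in part. In GENCODE M21 coordinates (GRCm38) they run from Trim34a at chr7:104244457-104262234 on the plus strand through Trim5 (104263386-104288094), Trim12a (104299894-104315466), Trim12c (104338754-104353362) and Trim30a (104409025-104465193) to Trim30d (104470014-104507849) on the minus strand. The longest annotated protein of Trim12a has 297 residues, against 485 to 497 for the others of the cluster. The SPRY domain itself was not searched, so the cluster name does not mean that each gene carries it. Trim30a, which restrains Toll-like receptor signalling to NF-kappaB, had 29.9, 28.2 and 28.3 scaled reads in the Input of animals 201, 207 and 208 and 330, 366 and 254 in Positive. The Input values lay within 2 reads of each other and far under every Positive value, a rise of 11.0-fold (log2 3.46 ± 0.20 SE, adjusted p = 1.74e-08).

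Its neighbour Trim30d had 12.2, 28.2 and 10.5 in Input and 204, 237 and 133 in Positive, also 11.0-fold higher (log2 3.47 ± 0.33 SE, adjusted p = 2.82e-06). The Input of animal 207 was the high one of the 3, and without it the log2 fold change was 4.06. Trim5 had 13.4, 8.22 and 10.0 in Input and 87.1, 137 and 93.2 in Positive, 9.82-fold higher (log2 3.30 ± 0.30 SE, adjusted p = 1.77e-06). The fractions of both genes were well apart in every animal.

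Trim12c went from 63.2, 61.1 and 53.8 to 274, 335 and 231 (4.71-fold, log2 2.24 ± 0.18 SE, adjusted p = 5.74e-07). Trim34a went from 20.4, 24.0 and 28.3 to 109, 139 and 73.7 (4.40-fold, log2 2.14 ± 0.28 SE, adjusted p = 5.22e-05). Trim12a went from 49.6, 63.3 and 45.7 to 149, 177 and 121 (2.80-fold, log2 1.48 ± 0.21 SE, adjusted p = 1.01e-04). In each of these genes the lowest Positive library was above the highest Input library, and that lowest library was the Positive of animal 208.

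These genes have close copies, and how reads that fit more than 1 copy were shared out is not given in the sources used here. Of the 42-base words of Trim34a transcripts, 43.51% also occur in Trim34b. For Trim5 the share found in other genes was 43.37%, most of it in Trim12c, and it was 38.99% for Trim12c, 12.31% for Trim12a, 8.80% for Trim30d and 7.10% for Trim30a. The split of reads between Trim5, Trim12a and Trim12c, and between Trim34a and Trim34b, is therefore uncertain, while Trim30a rests mostly on sequence of its own.

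Among the 16 other PRY-SPRY members, 8 were higher, 1 lower and 7 not called, with log2 fold changes of -0.59 to 4.20. Trim14, a mitochondrial adaptor of antiviral signalling that lacks a RING finger, had the largest fold change of the family. It had 2.04, 3.74 and 4.20 scaled reads in Input and 64.6, 94.5 and 30.2 in Positive (log2 4.20 ± 0.52 SE, adjusted p = 2.74e-05). The Input rested on 10 reads in all against 193 in Positive, a scaled ratio of 19.2 with an exact 95% interval of 10.2 to 40.7 that covers counting error only. The level was thus close to the limit of detection in whole hippocampus and clear in every Positive library.

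Trim47, linked in human genetic studies to small vessel disease of the brain, went from 69.6, 50.3 and 65.0 to 338, 359 and 222 (4.97-fold, log2 2.31 ± 0.21 SE, adjusted p = 1.59e-06). The gene next to it, Trim65, which ubiquitinates the RNA sensor encoded by Ifih1, went from 81.6, 85.4 and 105 to 188, 242 and 178 (2.24-fold, log2 1.16 ± 0.18 SE, adjusted p = 1.96e-04). The 2 genes overlap by 5365 bases on the same strand of chromosome 11, and 6.87% of the words of Trim47 occur in Trim65, so part of their reads could have been given to either. Both genes were higher in all 3 animals, with a smaller ratio in animal 208.

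Trim25, the ligase that activates the RNA sensor RIG-I, had 136, 104 and 143 scaled reads in Input and 339, 421 and 257 in Positive (2.66-fold, log2 1.41 ± 0.19 SE, adjusted p = 6.41e-05). Trim21, a cytosolic receptor for antibody-coated virus, had 34.8, 32.9 and 49.3 in Input and 111, 111 and 78.9 in Positive (2.58-fold, log2 1.37 ± 0.24 SE, adjusted p = 5.95e-04). Trim26, encoded near the MHC class I genes of chromosome 17, had 390, 359 and 302 in Input and 771, 846 and 655 in Positive (2.16-fold, log2 1.11 ± 0.12 SE, adjusted p = 1.19e-05). None of these overlapped between fractions, and Trim26 had the highest Positive value among the members that rose by 2-fold or more.

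Trim16, which also lacks a RING finger and is known from the clearance of damaged endosomes and lysosomes, was the least even of the group. It had 12.2, 14.1 and 34.6 in Input and 59.7, 74.2 and 42.6 in Positive (2.92-fold, log2 1.55 ± 0.37 SE, adjusted p = 0.00462). In animal 208 the 2 fractions were close, with a log2 ratio of 0.29 against 2.20 and 2.32 in the others. Without the Input of animal 208 the log2 fold change was 2.15 (adjusted p = 7.93e-04). The gene overlaps Fbxw10 by 3740 bases on the same strand.

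Smaller differences were found for 2 more of these members. Trim27, a ligase of endosomal sorting, rose by 0.31 ± 0.10 on the log2 scale (adjusted p = 0.0237), and Trim39 fell by 0.42 ± 0.11 (SE, adjusted p = 0.00819). The call for Trim27 was lost with total count scaling (adjusted p = 0.0746), in limma on the deposited log2 values (0.0681) and without the Input of animal 201 (0.0877), the Input of 208 (0.0529) or the Positive of 208 (0.0540), at log2 fold changes of 0.23 to 0.33. Trim39 was called in every alternative fit.

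The 2 most abundant members of this group of other PRY-SPRY genes did not pass the test. Trim35 had 3070, 3060 and 3200 scaled reads in Input and 3300, 3300 and 3750 in Positive (log2 0.15 ± 0.08 SE, adjusted p = 0.144). Trim41 had 1250, 1210 and 1160 in Input and 1350, 1370 and 1260 in Positive (log2 0.14 ± 0.08 SE, adjusted p = 0.150). Their Positive values lay above their Input values in every animal, by log2 ratios of 0.10 to 0.23. Trim7, Trim11, Trim17, Trim62 and Trim68 were not called either, at log2 fold changes of -0.59 to -0.07. Trim11, at -0.23 (adjusted p = 0.0724), was called lower with total count scaling (adjusted p = 0.0222) and with a filter at a mean of 100 scaled reads (0.0474). Trim17 overlaps Hist3h2a on the same strand and shares 17.9% of its words with it.

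Neighbouring members did not all differ in the same way. Trim21 and Trim68 lie close together on chromosome 7 (102557921-102565486 and 102677582-102687327), and Trim21 rose whereas Trim68 had 94.1, 94.8 and 123 scaled reads in Input and 121, 81.3 and 65.6 in Positive (log2 -0.23 ± 0.24 SE, adjusted p = 0.457). Of the 11 members on chromosome 7, the other 3, Trim28, Trim3 and Trim66, had log2 fold changes of 0.47, 0.01 and 0.08.

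**Figure D2:**
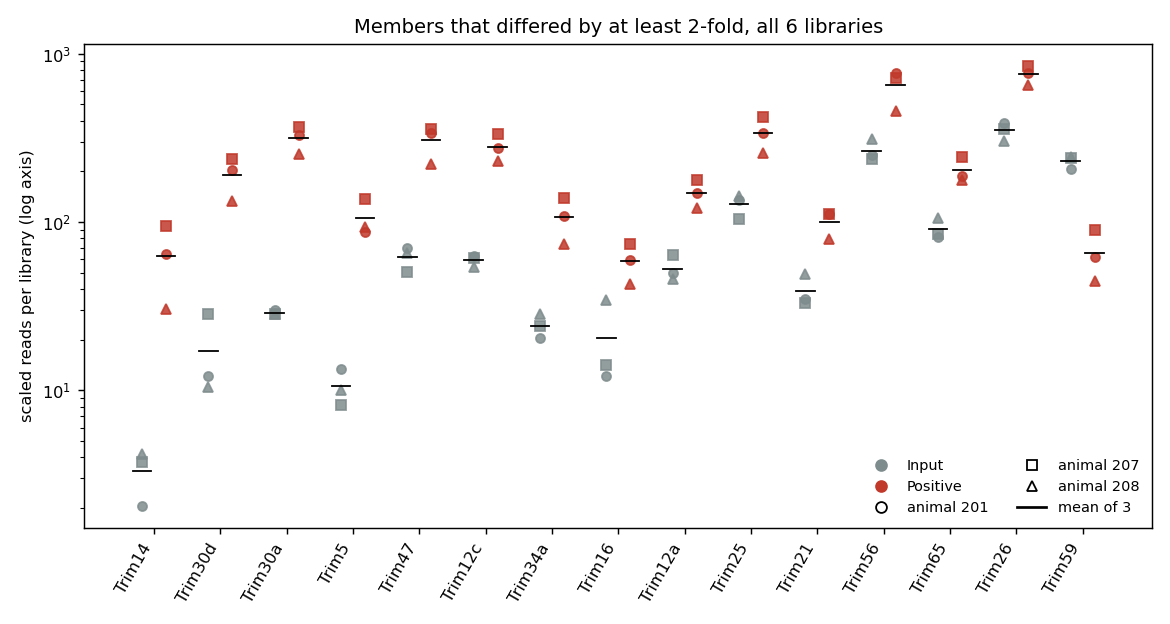
Scaled reads in each of the 6 libraries (vertical log axis) for the 15 members that differed by at least 2-fold, Input in grey and Positive in red, with the animal given by the marker shape and the mean of 3 by a bar. Trim14 has the lowest Input values (2.04 to 4.20), and Trim59 is the member that was lower. The Positive values of animal 208 are the lowest of the 3 in 13 of the 14 members that were higher (92.9%). The same held for 86.0% of all 1272 genes called higher by at least 2-fold.

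Trim56, a ligase of the STING and RNA sensing pathways with no PRY-SPRY domain, was the remaining member that rose by 2-fold or more. It had 249, 237 and 310 scaled reads in Input and 772, 720 and 456 in Positive (2.45-fold, log2 1.29 ± 0.18 SE, adjusted p = 7.97e-05). Its log2 ratio was 1.63 and 1.60 in animals 201 and 207 and 0.55 in animal 208. The fractions did not overlap, yet the size of the rise differed by animal.

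The same held across the enriched members. In 11 of the 14 members that were higher by at least 2-fold, animal 208 had the smallest ratio (78.6%), against 68.9% of all 1272 genes called higher at that size. Median log2 ratios in animals 201, 207 and 208 were 4.55, 4.88 and 4.36 for the microglia markers and 2.20, 2.08 and 1.12 for the endothelial markers. Without the Positive library of animal 208, 17 members were higher and 6 lower.

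**Figure D3:**
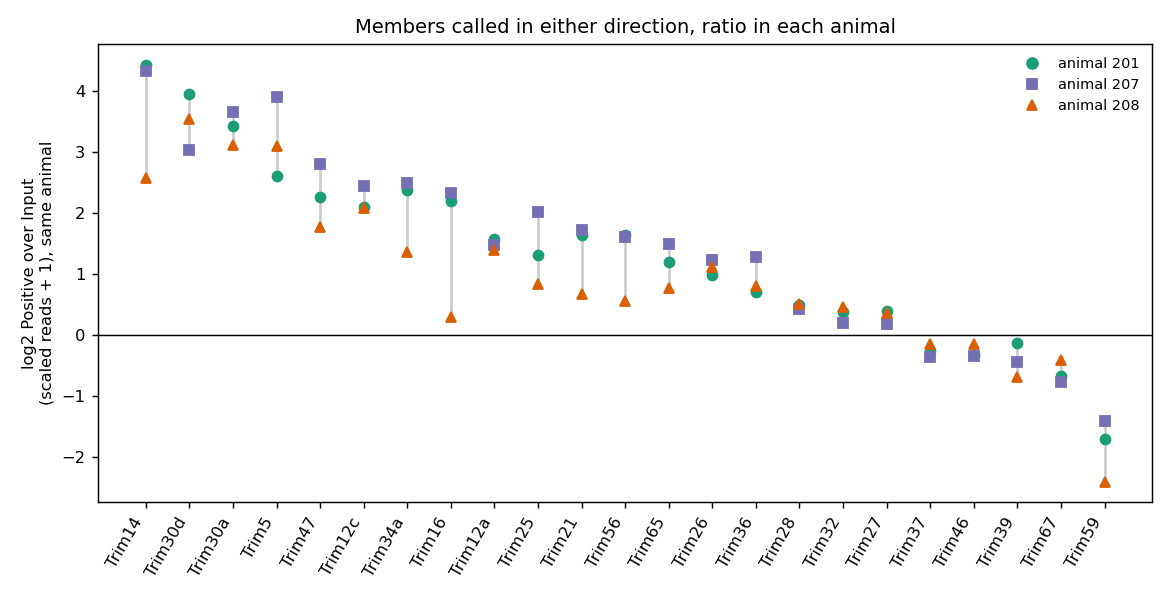
Log2 ratio of Positive over Input within each animal (scaled reads plus a pseudocount of 1, vertical axis) for the 23 members called in either direction; circles, squares and triangles are animals 201, 207 and 208. Every called member has the same sign in all 3 animals, but the calls were made on these same libraries. Of all genes tested, called or not, 70.5% had the same sign, and the share among all called genes was not counted. Trim16 spans 0.29 to 2.32.

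In the other subfamilies, the differences of called members were under 2-fold apart from those of Trim56 and Trim59. Of the 4 NHL repeat members 1 was higher and 3 were not called. Trim32, known from muscle and neural progenitors, had 2990, 3090 and 3140 scaled reads in Input and 3870, 3540 and 4300 in Positive (1.27-fold, log2 0.34 ± 0.08 SE, adjusted p = 0.00497). Trim2, which ubiquitinates the neurofilament light chain, had 6120, 6940 and 6760 in Input and 5150, 5610 and 6330 in Positive (log2 -0.21 ± 0.09 SE, adjusted p = 0.0747). The fit with the animal as a block called Trim2 lower (log2 -0.22, adjusted p = 0.0367), and so did the fit without the Positive library of animal 208 (log2 -0.30, adjusted p = 0.00588), total count scaling (-0.29, adjusted p = 0.0187) and the filter at a mean of 100 scaled reads (-0.24, adjusted p = 0.0419). Trim3, a ligase of the postsynaptic density, and Trim71, a developmental RNA-binding member, were at 0.01 and -0.40.

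Among the chromatin regulators with a PHD finger and bromodomain, Trim28, the corepressor of KRAB zinc finger proteins, was the one that rose. It had 2040, 2220 and 2060 scaled reads in Input and 2870, 2970 and 2910 in Positive (1.38-fold, log2 0.47 ± 0.07 SE, adjusted p = 2.12e-04), an even rise with ratios of 0.49, 0.42 and 0.50. Trim33, a ligase of the TGF-beta pathway, had 942, 888 and 890 in Input and 833, 866 and 933 in Positive (log2 -0.05 ± 0.08 SE, adjusted p = 0.673). Trim24, a cofactor of nuclear receptors, was at -0.12 ± 0.11 (SE). Trim66 stands in a neuronal list that the study took from published cell sorting. It had 450, 331 and 304 in Input and 382, 373 and 389 in Positive (log2 0.08 ± 0.14 SE, adjusted p = 0.691), with overlapping fractions.

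The COS box members, which bind microtubules, went both ways. The SPRY domain was not searched, so the name of this group does not mean that its members lack it. Trim9, a neuronal ligase of axon guidance that stands in the study's astrocyte list, had 3920, 4070 and 3720 scaled reads in Input and 3560, 3470 and 3830 in Positive (log2 -0.11 ± 0.08 SE, adjusted p = 0.269). Trim46, an organizer of microtubules at the start of the axon, had 1590, 1360 and 1450 in Input and 1270, 1060 and 1300 in Positive, a difference of -0.28 ± 0.10 (SE, adjusted p = 0.0307). Trim67, the closest relative of Trim9, fell by 0.62 ± 0.21 (SE, adjusted p = 0.0270), from a mean of 84.4 ± 2.53 to 54.9 ± 6.72 scaled reads. Trim36 rose by 0.94 ± 0.17 (SE, adjusted p = 6.74e-04), from 120 ± 15.0 to 230 ± 38.8.

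The differences of Trim46 and Trim67 stayed in the same direction while their calls did not hold throughout. Trim46 was not called in limma on the deposited log2 values (adjusted p = 0.0898) or without the Input of animal 201 (0.122), the Input of 208 (0.0776) or the Positive of 207 (0.128), at log2 fold changes of -0.30 to -0.19. Trim67 was not called without the Input of 201 (0.0695), 207 (0.0694) or 208 (0.0641) or the Positive of 201 (0.0598) or 207 (0.0888), at log2 fold changes of -0.64 to -0.53. The 3 called COS box members became 1 without the Input of animal 201 or 208 or the Positive of 207.

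One member fell clearly. Trim59, a ligase anchored in membranes that stands in the study's oligodendrocyte list, had 206, 239 and 242 scaled reads in Input and 62.3, 89.3 and 44.7 in Positive, a level of 28.7% of Input (log2 -1.80 ± 0.22 SE, adjusted p = 2.36e-05). The fall was present in each animal, at -1.71, -1.41 and -2.41. It lay within the range of the 10 oligodendrocyte markers, from -3.10 to -1.61, and its relation to them was not tested. Trim13, the other transmembrane member, had 107, 96.8 and 81.5 in Input and 85.6, 97.3 and 96.2 in Positive (log2 -0.03 ± 0.19 SE, adjusted p = 0.907). Shared sequence was 7.60% of the words of Trim59 and 19.42% of those of Trim13, the latter with Gm9359.

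Of the 6 members with other architectures, Trim56 rose, Trim37 fell and 4 were not called. Trim37, a centrosomal ligase, had 5230, 5570 and 5560 scaled reads in Input and 4360, 4340 and 4990 in Positive (log2 -0.26 ± 0.08 SE, adjusted p = 0.0215). That call was lost in limma on the deposited log2 values (adjusted p = 0.0647) and without the Input of animal 207 (0.0847) or 208 (0.0911) or the Positive of 201 (0.0678) or 207 (0.0739), at log2 fold changes of -0.28 to -0.22. Trim44, which lacks a RING finger, had 4720, 4410 and 4760 in Input and 4370, 4910 and 5360 in Positive (log2 0.08 ± 0.09 SE, adjusted p = 0.508). Trim8, a regulator of cytokine signalling, Trim23, which carries a small GTPase domain, and Trim45 were at 0.17, 0.14 and -0.20, and Trim8 was called without the Input of animal 201 (log2 0.23, adjusted p = 0.0377).

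Compared per length, the members that rose most were not the abundant ones, but the Input level is also the base of the fold change. Trim14, Trim5, Trim30d and Trim16 were in the table through their Positive level alone. For them a low Input and a rise were joined by the filter. Scaled reads per kilobase of exon were highest for Trim32 in both fractions, at 952 in Input and 1210 in Positive, followed by Trim44 at 821 and 865. Next in Input were Trim37 at 756 and Trim35 at 674, and next in Positive Trim35 at 747 and Trim28 at 701. Trim30a was 37th of 42 in Input, at 7.01 reads per kilobase, and 19th in Positive, at 77.0. Trim47 went from the 28th place to the 15th (22.5 and 112), and Trim14 from the last to the 38th (0.766 and 14.5). Trim59 moved the other way, from the 18th to the 37th (68.3 and 19.5). As a set, the 42 members summed to 42600 to 43100 scaled reads in Input and 44300 to 46900 in Positive.

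**Figure D4:**
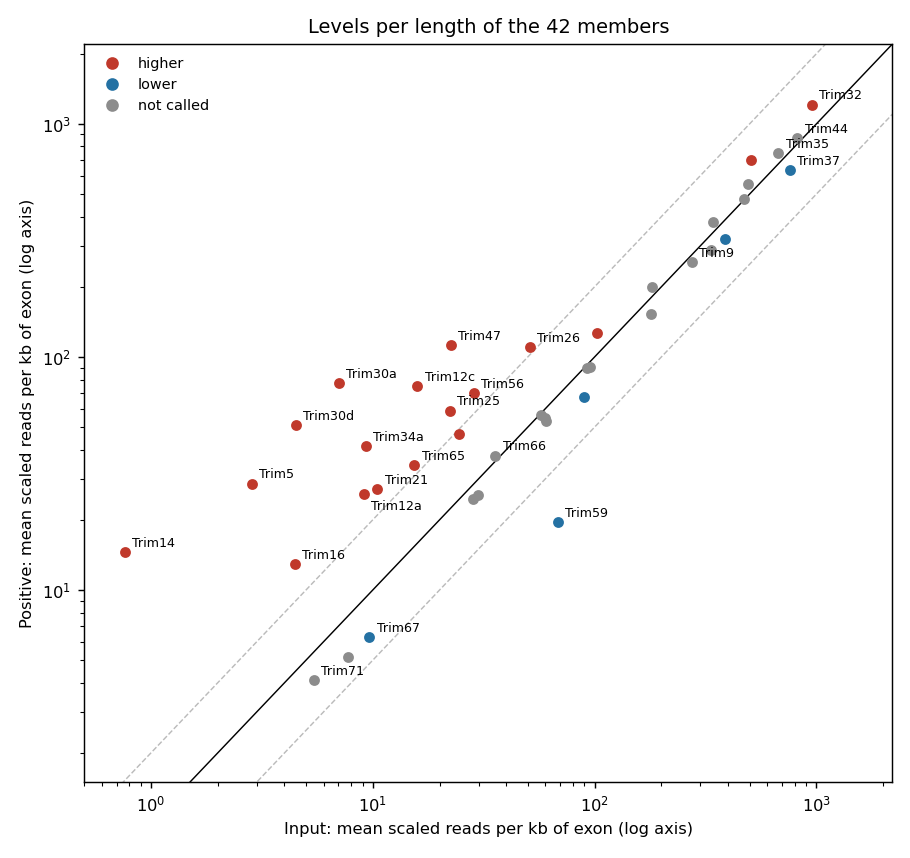
Mean scaled reads per kilobase of exon in Input (horizontal log axis) and Positive (vertical log axis) for the 42 members; the solid line marks equal levels, the dashed lines 2-fold, and the colours the calls. Members that rose by 2-fold or more start at 0.766 to 51.0 in Input, while the 4 highest in Input, Trim32, Trim44, Trim37 and Trim35, stay close to the line. Trim14, Trim5, Trim30d and Trim16 were in the table through their Positive level alone.

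The rule used symbols only, and a match by sequence was made beside it. A C3HC4 spacing pattern for the RING finger was found in the longest annotated protein of 30 of the 42 members and of 209 of 21566 coding genes (0.97%). Trim14, Trim16 and Trim44, known to lack a RING finger, were among the 12 without a match. The other 9 included Trim9, Trim36, Trim46 and Trim67, so a missing match says only that this spacing was not found.

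TRIM genes that carry other symbols and partners of TRIM ligases were read from lists. Of 5 TRIM genes under other symbols, Mid1 (log2 0.71 ± 0.20 SE, adjusted p = 0.00968) and Pml, the core protein of nuclear bodies (0.48 ± 0.14 SE, adjusted p = 0.0126), were higher and 0 were lower, and 1 was called without the Input of animal 201 or 208 or the Positive of 207. Of 15 E2 enzymes that work with TRIM ligases, 2 were higher, 2 lower and 11 not called, with a median log2 fold change of -0.13. Ube2l6, the E2 enzyme of ISG15, and Ube2l3 were the higher ones, at 0.91 and 0.52, and Ube2d1 and Ube2w the lower ones, at -0.43 and -0.33. The count of 4 E2 genes that differed became 8 when the Positive of animal 208 was left out and 9 under scaling by total counts.

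Genes of antiviral sensing and signalling were mostly higher. Of 19 genes of RIG-I-like receptor, STING and related antiviral signalling, 13 were higher, 1 lower and 5 not called, with a median of 0.72. The median became 0.48 with the filter at a mean of 100 scaled reads. Dhx58, at a mean of 19.6 scaled reads in Input, and Mb21d1, at 24.7 ± 10.8, were not above 20 in every Input library. Both could only be seen if high in Positive. The largest differences were those of Irf5, a transcription factor of myeloid cells, at 4.45 ± 0.20 (SE, adjusted p = 2.02e-09), and Tmem173, which encodes STING, at 4.17 ± 0.18 (SE, adjusted p = 1.21e-09). At the other end were the kinase gene Tbk1, higher by 0.39, and the adaptor gene Traf3, which fell by 0.55. Values for direct partners were 1.47 for Ddx58 (RIG-I, the target of Trim25), 1.90 for Ifih1 (the target of Trim65) and 1.21 for Mavs, the adaptor bound by Trim14, and these 3 genes were named after their values were seen.

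Of 19 interferon response genes, 15 were higher, 0 lower and 4 not called, with a median of 1.21. Oas1a, Ifi27l2a and Usp18 averaged 8.71 to 16.2 scaled reads in Input, and Isg15 20.1 ± 7.36. These genes were not above 20 in every Input library, so they could only be seen if high in Positive. The count of 15 became 8 with the filter at a mean of 100 scaled reads. Parp14 and Ifi27l2a had the largest values, at 3.05 and 2.58, and Ifit3 and Herc6 the smallest among those called, at 0.53 and 0.73. Of 15 silencing partners of Trim28, 5 were higher, 2 lower and 8 not called, with a median of 0.18. The 7 that differed became 4 without the Input of animal 201 or of 208 and 4 in limma on the deposited log2 values. Dnmt1 (0.61) and Chd4 (0.48) were at the upper end and Zfp57 (-0.63) and Chd3 (-0.32) at the lower. These lists are set against 23.9% of all genes called higher, 22.0% called lower and a median of -0.01, with no test of the lists themselves.

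**Figure D5:**
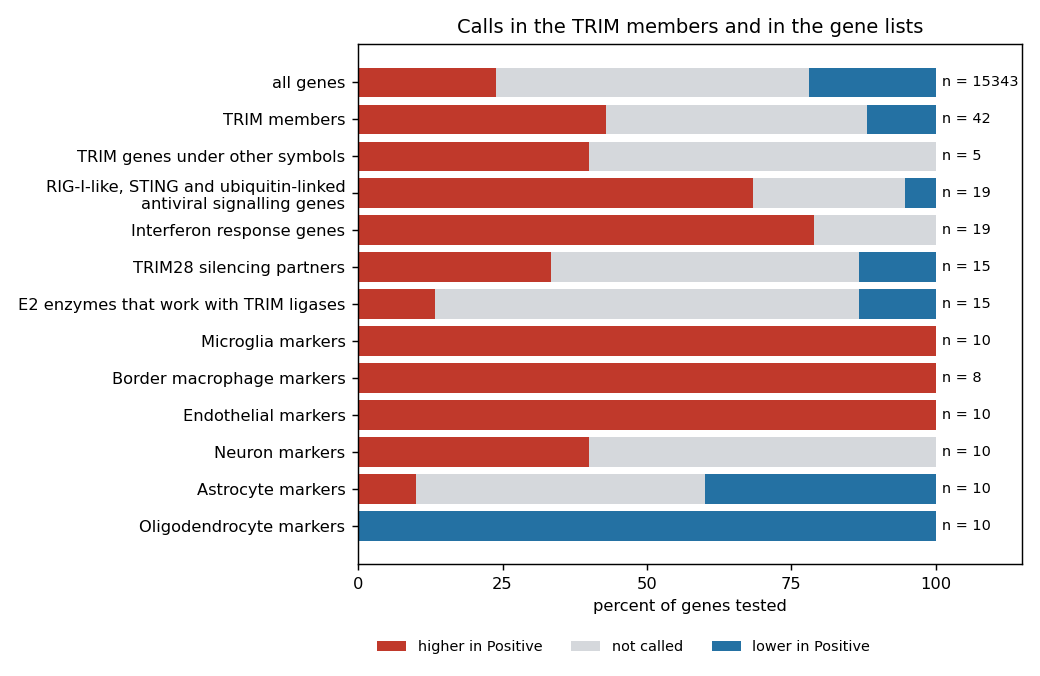
Percent of the genes tested in each list (horizontal axis) that were called higher in Positive (red), not called (grey) or called lower (blue), with the number of genes at the right. The TRIM members have 18 of 42 called higher and 5 lower, all genes 23.9% and 22.0%, and the interferon response genes 15 of 19 higher and 0 lower. Some listed genes, such as Oas1a and Pf4, were in the table through their Positive level alone.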

How the data were processed

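RNA from 3 Input and 3 Positive TRAP fractions of hippocampus was measured as directional, poly(A)-selected libraries. The authors trimmed reads, aligned them by strand to mm10 in Strand NGS and deposited expected counts (estimated reads that need not be whole) for 15388 genes, having kept a gene when each library of 1 fraction or the other reached 20 raw reads. They also deposited log2 values scaled by DESeq and centred per gene on Input. 0 sample columns were left unmapped.

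Here expected counts were rounded and tested with edgeR 4.0.16 in R 4.3.3 (glmQLFit, glmQLFTest, RLE scaling, unpaired as in the study), keeping genes above 20 scaled reads throughout 1 fraction or the other. A total of 15343 genes stayed and 45 did not. The Benjamini-Hochberg adjustment covered all genes tested, with 0.05 as the limit for the adjusted p-value. SEs come from the F statistic. Depth was 14879734 to 17757918 reads per library, and reads without molecular identifiers make intervals cover counting error only.

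Both fractions of an animal carry its number, so samples pair by animal. Deviations from the group means correlated at 0.194, 0.058 and 0.12 within animals 201, 207 and 208, and at -0.14 to 0.032 between animals. Alternatives were TMM and total count scaling, other filters, DESeq2 1.42.0, the animal as a block, leaving out each library, pseudocounts of 0.1 and 5 on ratios per animal and, added after seeing the data, limma 3.58.1 on the deposited log2 values.

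The members, subfamilies and lists were chosen with earlier results of these data known. Values in all libraries are given for called members with at least a 2-fold change, for members in the study's lists from cell sorting and for the 2 highest means of each subfamily; of each partner list the 2 largest and 2 smallest called changes are named. Trim68 and the partners Ddx58, Ifih1 and Mavs were added after their values were seen. Coordinates are from GENCODE M21, promoters from RefSeq GRCm38.p6. Shared sequence was counted as 42-base words in transcripts of other genes. The fit was tested on simulated data.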

Additional observations from a re-analysis of the deposited data

How the results depend on the processing

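Over 13 alternative fits, 19 of the 23 called members were called in the same direction wherever they were tested, and Trim27, Trim37, Trim46 and Trim67 were not. The number of members that differed ran from 19 to 24. The number lower in Positive was 3 in limma on the deposited log2 values and 2 to 6 with 1 library left out, and the calls lost are named with their libraries above. The filter at a mean of 100 scaled reads left fewer members to call, with 13 higher and 6 lower. The animal as a block called 24 members, adding Trim2, and changed no other call.

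Members near 0 changed sign without a call. Trim44 was at -0.002 and Trim3 at -0.070 with total count scaling. Trim3 was also at -0.021 with the filter at 100 and at -0.005 in limma, and ran from -0.070 to 0.108 with 1 library left out. The same ranges were -0.032 to 0.264 for Trim66, -0.176 to 0.001 for Trim17 and -0.127 to 0.061 for Trim13. The cause of these changes was not tested. The pseudocounts moved no ratio per animal by more than its SD. With 3 animals, small differences such as those of Trim35 and Trim41 could not be resolved, and Trim14 rests on 10 Input reads.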
